A study of Mus musculus with 4 samples.

Results

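The genes described here are 7 transcripts used to recognise peritoneal macrophages, Gata6, Adgre1, Icam2, Timd4, Vsig4, Lyz2 and Cd68, out of 54532 genes in the deposited count table. They were taken by gene name from that table and read across its 4 count columns. Of the 7, 6 had at least 10 reads in at least 1 library, and Timd4 did not. Those 6 each had at least 20 reads in every library, so none of them passed this limit through 1 condition alone.

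The libraries are RNA-seq of peritoneal macrophages of WT mice, 1 for each combination of medium and inhibitor, made in a study of the aryl hydrocarbon receptor (AHR) in macrophages during breast cancer metastasis. Normal medium contained no 4T1 conditioned medium (0%), and the 4T1-CM condition contained 30% medium conditioned by 4T1, a mouse mammary carcinoma line. Each medium was combined with the solvent DMSO or with CH223191, an antagonist of AHR, at 10 µM. By the study's methods, its peritoneal macrophages came from BALB/c mice injected with thioglycollate broth, an irritant that draws new cells into the peritoneal cavity, so these cells are a model of elicited and not of untouched resident macrophages. Whether cells of several mice were pooled, and how long these libraries were treated, is not given in the sources used here.

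In the unstimulated peritoneal cavity most macrophages are large, long-lived cells that depend on the transcription factor GATA6, which is induced by retinoic acid, and carry high F4/80 (encoded by Adgre1), ICAM2 and the phosphatidylserine receptor TIM4 (encoded by Timd4). VSIG4, a receptor for fragments of complement C3, marks resident macrophages of several tissues. Lysozyme 2 (Lyz2) and the endosomal glycoprotein CD68 are made by macrophages in general and by some other myeloid cells, and macrophages that have recently come from monocytes carry little GATA6, TIM4 and VSIG4.

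The 4 libraries held between 15535405 and 17557127 reads, and 17395 to 18665 genes had a read. Mitochondrial genes took 0.633% and 1.17% of the reads with DMSO and CH223191 in normal medium, and 1.76% and 1.79% in 4T1-CM. What set this difference was not tested. Levels are given as CPM, read counts scaled to a common library size by TMM, with scaling factors that lay between 0.986 and 1.0261. Between genes they are compared only as CPM per kilobase of gene length (RPKM). All 14 general macrophage genes examined, such as Csf1r (the receptor of M-CSF) and Itgam (CD11b), were kept at 10 reads or more in at least 1 library. Their summed level was 5933 to 6515 CPM in normal medium and 8737 to 9276 CPM in 4T1-CM. Of this sum, Cd14 made up 275 and 239 CPM in normal medium and 3153 and 3415 CPM in 4T1-CM, with DMSO and CH223191. The higher sum in 4T1-CM thus rested on this 1 gene. Of the 6 T cell markers, Cd3d, Cd3e, Cd3g, Cd8a and Trac had no read in any library, and the T cell sum was at most 0.69 CPM. There was 1 library per condition, so no difference below has a replicate check. All intervals are 95% intervals of counting error only (exact Poisson for a level, exact Clopper-Pearson for the split of reads between 2 libraries), and they compare libraries, not conditions.

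Positions are given in the coordinates of GRCm38. Adgre1 spans chr17:57358691-57483527 on the plus strand with 22 exons in its longest transcript, and Timd4 spans chr11:46810800-46844332 on the plus strand. On the minus strand lie Icam2 at chr11:106377656-106388075, Cd68 at chr11:69664213-69666153, Vsig4 at chrX:96247203-96293438 and Lyz2 at chr10:117277331-117282321. RefSeq promoter windows (GRCm38.p6) matched 4 of the 7 genes. Of these, 3 are shown, 1 gene that fell with 4T1-CM (Vsig4), 1 that rose (Lyz2) and 1 whose level with DMSO and with CH223191 differed in normal medium but hardly in 4T1-CM (Cd68). Each is written 5′ to 3′ along the minus strand and ends before the start of transcription. The Vsig4 window is chrX:96293439-96293688, the Lyz2 window chr10:117282322-117282522 and the Cd68 window chr11:69666171-69666420. Capitals mark GAGGAA, a core recognised by the macrophage factor PU.1.
Vsig4: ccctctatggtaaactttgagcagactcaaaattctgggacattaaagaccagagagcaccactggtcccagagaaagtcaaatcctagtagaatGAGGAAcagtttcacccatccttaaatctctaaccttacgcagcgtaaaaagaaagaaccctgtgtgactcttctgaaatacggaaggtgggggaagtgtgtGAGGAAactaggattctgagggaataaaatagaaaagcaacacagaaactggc
Lyz2: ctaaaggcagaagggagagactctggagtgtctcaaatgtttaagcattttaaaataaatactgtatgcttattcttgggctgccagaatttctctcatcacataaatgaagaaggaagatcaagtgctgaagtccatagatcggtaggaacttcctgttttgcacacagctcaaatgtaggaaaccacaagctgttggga
Cd68: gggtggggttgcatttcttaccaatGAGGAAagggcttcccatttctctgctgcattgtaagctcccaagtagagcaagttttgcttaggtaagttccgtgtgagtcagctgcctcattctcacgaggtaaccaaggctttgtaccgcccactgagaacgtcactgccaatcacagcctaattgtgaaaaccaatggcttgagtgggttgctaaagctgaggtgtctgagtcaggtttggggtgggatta
The Vsig4 window held GAGGAA 155 and 53 bases before the start, the Cd68 window held it 225 bases before the start, and the Lyz2 window did not hold it on either strand. The GATA core AGATAA was in none of the windows on either strand. Among 32851 promoter windows of 250 bases, 23.3% held GAGGAA and 9.99% held AGATAA on at least 1 strand. These are matches of letters only, and no factor's binding was measured in these data.

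The 7 genes fell into an abundant group and a scarce group. Per length, Lyz2 stood highest at 9033 and 11539 RPKM with DMSO and CH223191 in normal medium and at 25043 and 27030 RPKM in 4T1-CM, which was rank 3 among all detected genes with DMSO in normal medium and rank 2 in the other libraries. Cd68 followed at 912, 1635, 1635 and 1714 RPKM in the same order of libraries. Adgre1 came next at 79.4, 76, 316 and 269 RPKM, and moved from ranks 568 and 648 in normal medium to ranks 104 and 126 in 4T1-CM. These 3 are the genes that macrophages of most tissues express.

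Vsig4, Icam2, Gata6 and Timd4 were scarce beside Lyz2, Cd68 and Adgre1, and Timd4 alone lay at the detection limit. Vsig4 stood at 4.9 and 4.66 RPKM in normal medium and at 1.31 and 1.41 RPKM in 4T1-CM. Icam2 measured 1.42, 2.28, 1.35 and 1.16 RPKM, and Gata6 0.46, 0.225, 0.266 and 0.264 RPKM. Timd4 had 3 reads with DMSO in normal medium, none with CH223191 in normal medium, none with DMSO in 4T1-CM and 1 with CH223191 in 4T1-CM. The upper limits of its level were 0.55, 0.232, 0.211 and 0.343 CPM in the same order. Set against the name of resident identity genes, the data thus showed high Lyz2, Cd68 and Adgre1 beside Gata6 at 20 to 41 reads, Icam2 at 36 to 69 reads, Vsig4 at 34 to 116 reads and Timd4 at 0 to 3 reads.

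**Figure D1:**
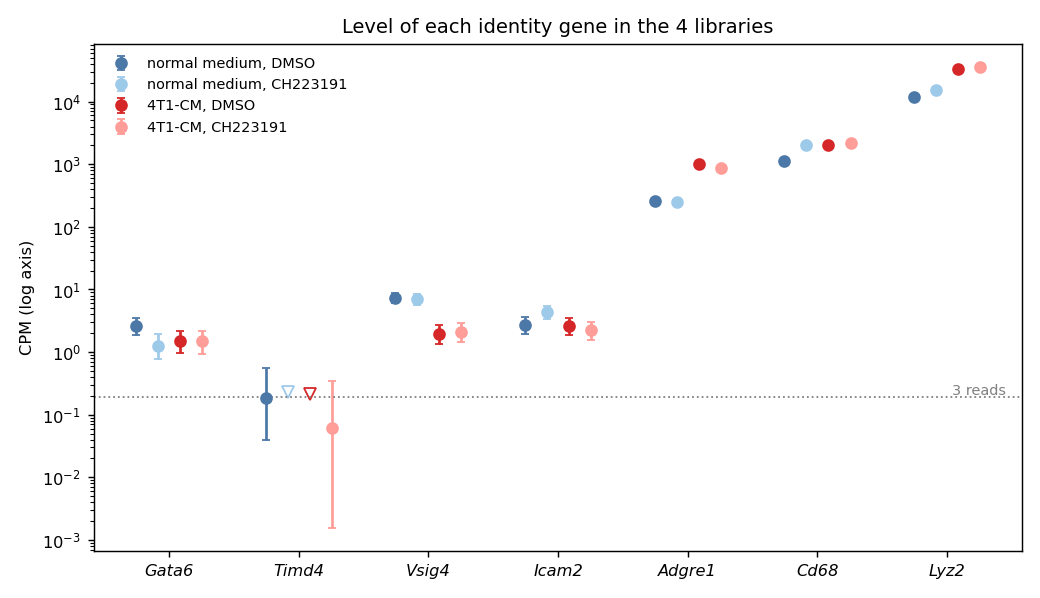
Level of each gene in the 4 libraries as CPM on a log axis, with exact Poisson 95% bars and open triangles for the upper limit where no read was found; the dotted line is the level of 3 reads. Lyz2 lies above 11888 CPM in every library while the points of Timd4 lie at or below 0.188 CPM with upper limits of at most 0.55 CPM, and Adgre1 and Lyz2 sit higher, and Vsig4 lower, in both 4T1-CM libraries.

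In normal medium the order per length was Lyz2, Cd68, Adgre1, Vsig4, Icam2, Gata6, Timd4, and no neighbours in it had overlapping intervals. With DMSO, Lyz2 stood 9.91-fold above Cd68, Cd68 11.5-fold above Adgre1 and Adgre1 16.2-fold above Vsig4. In both 4T1-CM libraries the intervals of Vsig4 and Icam2 overlapped, so these neighbours could not be ordered there. Within a library, the ratio of reads of a pair of genes does not depend on the scaling. Vsig4 had 28.3 and 28.1 reads per 1000 reads of Adgre1 in normal medium with DMSO and CH223191, and 1.9 and 2.4 in 4T1-CM. Per 1000 Adgre1 reads, Gata6 had 10 and 5.11 in normal medium and 1.45 and 1.69 in 4T1-CM, and Icam2 had 10.5 and 17.6 in normal medium and 2.51 and 2.54 in 4T1-CM. These shares are set by Adgre1 as well, which itself stood higher in 4T1-CM, and the levels of Gata6 and Icam2 on their own did not fall in both pairs (given below).

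The first question was how 4T1-CM changed these genes, asked once with DMSO and once with CH223191, in pairs that share no library. A gene was counted as changed from a 2-fold difference on. With DMSO, 2 of the 6 measured genes were higher in 4T1-CM (Adgre1 and Lyz2) and 1 was lower (Vsig4), where 12% of the 13715 kept genes were higher and 6.07% lower. With CH223191 the counts were again 2 higher and 1 lower, beside 11.8% and 7.77% of all kept genes. The same genes made up both counts, and both comparisons together had 7.91% of all kept genes higher and 3.31% lower. For the 8323 genes averaging 10 CPM or more, where counting error is small, these shares were 4.24% and 2.19%. An additive fit over all 4 libraries, which leaves 1 residual degree of freedom, called the same 2 genes higher and Vsig4 lower with edgeR and with DESeq2, where edgeR called 16.4% of all kept genes higher and 16.2% lower and DESeq2 8.79% and 9.03%. The fit takes the 2 inhibitor conditions as replicates of each medium, so its calls do not measure the spread between cultures.

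Adgre1 encodes F4/80, an adhesion G-protein-coupled receptor long used as a surface marker of mouse macrophages. It stood at 257 and 246 CPM with DMSO and CH223191 in normal medium and at 1024 and 872 CPM in 4T1-CM. Both 4T1-CM libraries lay above both normal-medium libraries, 3.98-fold with DMSO (log2 ratio 1.99, interval 1.94 to 2.04) and 3.55-fold with CH223191 (log2 ratio 1.83, interval 1.77 to 1.88). Less RNA per cell and fewer cells of a type cannot be told apart in bulk libraries, for this and for every gene below.

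Lyz2 encodes lysozyme, a secreted enzyme that cleaves bacterial cell walls, and its locus drives Cre in many myeloid knockout lines. Its level was 11888 and 15185 CPM in normal medium and 32957 and 35572 CPM in 4T1-CM, and it took 1.22% and 1.5% of all reads in the former and 3.29% and 3.53% in the latter. The 4T1-CM libraries were higher 2.77-fold with DMSO (log2 ratio 1.47, interval 1.46 to 1.48) and 2.34-fold with CH223191 (log2 ratio 1.23, interval 1.22 to 1.23). Lyz2 shares 15.4% of its 50-base stretches and 1.97% of its 100-base stretches with its neighbour Lyz1, so some reads could be assigned to either. Lyz1 had 2.95, 2.86, 2.3 and 2.33 reads per 1000 reads of Lyz2, and was itself 35.1 and 43.4 CPM in normal medium and 75.8 and 82.8 CPM in 4T1-CM. The other 6 genes shared no stretch of either length with another gene's transcripts.

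Neutrophils also express Lyz2, and the summed level of 9 neutrophil markers was 67.6 and 74.6 CPM in normal medium and 242 and 181 CPM in 4T1-CM. The sum in 4T1-CM came mostly from Mmp8 (a collagenase of neutrophil granules, 122 and 46.7 CPM) and Csf3r (the G-CSF receptor, 86.9 and 108 CPM). S100a8, a calcium-binding protein of neutrophils and monocytes, stood at 6.21 and 11.9 CPM in normal medium and 32 and 25.4 CPM in 4T1-CM, and was higher in both comparisons (log2 ratios 2.36 and 1.08). Of the 9, Ly6g, S100a9 and Retnlg had no read in any library, and Camp and Ltf had no more than 6. Cxcr2 had 12 and 9 reads in normal medium and 2 and 0 in 4T1-CM. The part of other myeloid cells in the rise of Lyz2 was not tested further.

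Vsig4 encodes the complement receptor of the immunoglobulin superfamily, through which macrophages take up particles coated with C3 fragments. It had 116 and 110 reads (7.28 and 6.92 CPM) in normal medium and 34 reads in each 4T1-CM library (1.94 and 2.09 CPM). Both 4T1-CM libraries lay below both normal-medium libraries, 3.7-fold lower with DMSO (log2 ratio -1.89, interval -2.50 to -1.34) and 3.27-fold lower with CH223191 (log2 ratio -1.71, interval -2.32 to -1.16). It was the 1 gene of the 6 at least 2-fold lower in both comparisons.

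Cd68, a lysosome-associated glycoprotein of the LAMP family, had a ratio that differed between the inhibitor conditions, with the interval farthest from 0 among the 6 genes (given below with the differences). It stood at 1146 CPM with DMSO in normal medium and at 2055, 2055 and 2154 CPM in the other 3 libraries. As measured, the library in normal medium with DMSO lay apart, and the other 3 differed from each other by 1.05-fold or less. 4T1-CM stood above normal medium by a log2 ratio of 0.84 (interval 0.82 to 0.87) for DMSO and 0.07 (interval 0.05 to 0.09) for CH223191. Neither reached 2-fold.

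Gata6 and Icam2, the defining transcription factor and an adhesion molecule of resident cells, gave no change that held in both comparisons. Gata6 spans chr18:11052508-11085635 on the plus strand, and an antisense gene that overlaps it by 60 bases (1010001N08Rik) had at most 1 read. Gata6 had 41 and 20 reads in normal medium and 26 and 24 reads in 4T1-CM, and its log2 ratios were -0.78 for the DMSO pair (interval -1.56 to -0.05) and 0.23 for the CH223191 pair (interval -0.69 to 1.16). Icam2 had 43 and 69 reads in normal medium and 45 and 36 reads in 4T1-CM. The DMSO pair gave a log2 ratio of -0.07 (interval -0.71 to 0.57), and the CH223191 pair -0.96 (interval -1.59 to -0.37), just short of 2-fold. Mesothelial cells express Gata6, and their 7 markers summed to 1 and 1.51 CPM in normal medium and 0.971 and 0.616 CPM in 4T1-CM, with Krt19 at 0 and Msln at no more than 1 read in every library, Wt1 at 4 to 9 reads, Upk3b at 4 and 8 reads in normal medium but 0 in 4T1-CM, and Gpm6a at 13 reads with DMSO in 4T1-CM and at most 2 elsewhere. Endothelial cells express Icam2, and their 7 markers summed to 14.9 and 9.87 CPM in normal medium and 16.9 and 14 CPM in 4T1-CM, with Tek and Emcn at 0 throughout. Of these, Kdr had 142 and 80 reads in normal medium and 183 and 143 in 4T1-CM, Tie1 had 40 to 80 reads, and Cdh5 (VE-cadherin) had 14 and 10 reads and then 60 and 37. The part of such cells in the few Gata6 and Icam2 reads was not tested.

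**Figure D2:**
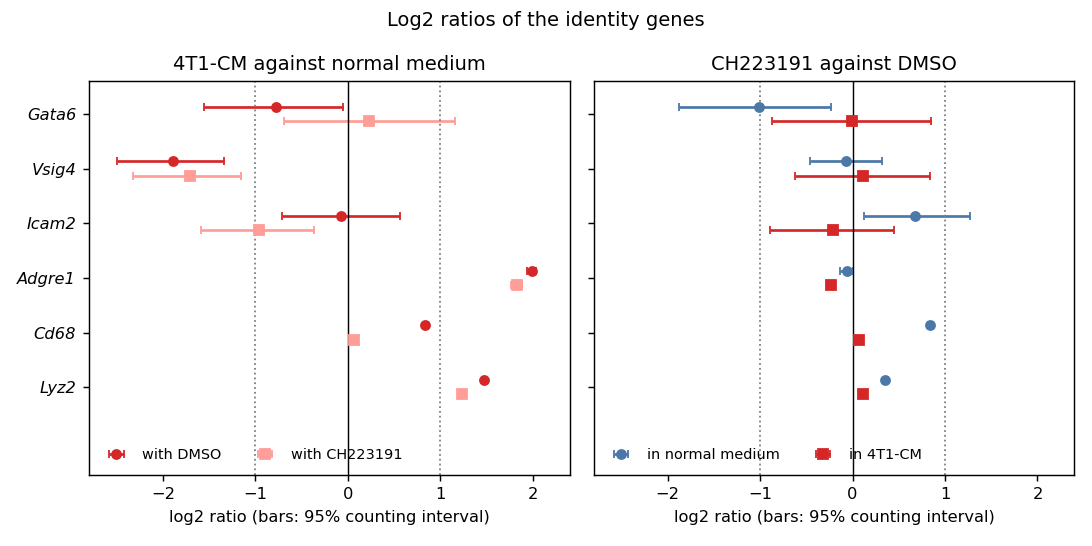
Log2 ratios of the 6 measured genes for 4T1-CM against normal medium (left) and CH223191 against DMSO (right), with 95% counting intervals as bars and dotted lines at 2-fold. On the left, Adgre1 and Lyz2 lie to the right of the 2-fold line and Vsig4 to the left of it with either inhibitor condition, while on the right only Gata6 in normal medium reaches the line.

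**Figure D3:**
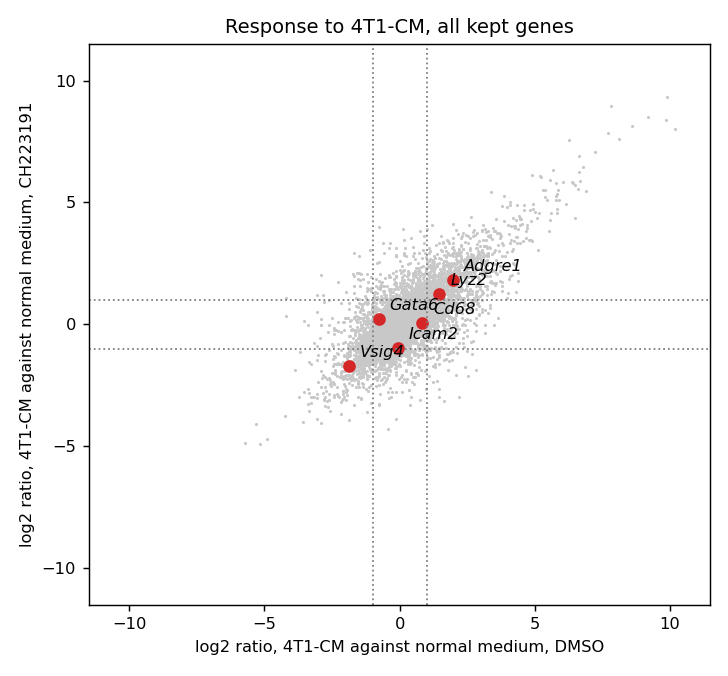
Log2 ratio of 4T1-CM to normal medium with DMSO (horizontal) and with CH223191 (vertical) for the 13715 kept genes in grey and the 6 measured genes in red, with dotted lines at 2-fold. Adgre1 (1.99 and 1.83) and Lyz2 (1.47 and 1.23) lie in the upper right corner and Vsig4 (-1.89 and -1.71) in the lower left one, and Cd68 lies at 0.84 and 0.07.

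The second question was whether the AHR antagonist changed these genes. In normal medium, none of the 6 was at least 2-fold higher with CH223191 and 1 was lower (Gata6), where 4.29% of all kept genes were higher and 2.86% lower. In 4T1-CM, 0 were higher and 0 lower, where 2.63% were higher and 2.51% lower. Gata6 fell from 41 to 20 reads in normal medium (log2 ratio -1.01, interval -1.88 to -0.23), which lies at the 2-fold limit and fell short of it with a prior count of 5 (-0.88) or with the trend on gene length removed (-0.95), and stood at 26 and 24 reads in 4T1-CM (log2 ratio -0.01). In 4T1-CM the 6 log2 ratios of CH223191 to DMSO lay between -0.23 (Adgre1, interval -0.26 to -0.20) and 0.11, and the intervals of Gata6, Icam2 and Vsig4 included 0.

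Cd68 was 1.79-fold higher with CH223191 in normal medium (log2 ratio 0.84, interval 0.82 to 0.87) and 1.05-fold higher in 4T1-CM (log2 ratio 0.07, interval 0.05 to 0.09). Lyz2 was higher by a log2 ratio of 0.35 (interval 0.34 to 0.36) in normal medium and 0.11 (interval 0.10 to 0.12) in 4T1-CM. Icam2 was higher by 0.68 (interval 0.12 to 1.27) in normal medium and stood at -0.21 (interval -0.89 to 0.45) in 4T1-CM. Adgre1 (log2 ratio -0.06, interval -0.13 to 0.00) and Vsig4 (log2 ratio -0.07, interval -0.46 to 0.32) showed no difference beyond counting error in normal medium.

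Subtracting the 4T1-CM response measured with DMSO from that measured with CH223191 gave -0.77 on the log2 scale for Cd68 (interval -0.81 to -0.74). For Lyz2 it was -0.24 (interval -0.25 to -0.23) and for Adgre1 -0.17 (interval -0.24 to -0.10), so the rise of both was somewhat smaller with CH223191. For Icam2 it was -0.89 (interval -1.73 to -0.05). The intervals of Gata6 (1.01, interval -0.10 to 2.12) and Vsig4 (0.18, interval -0.60 to 0.96) included 0. The intervals of these differences are normal approximations from the read counts of the 4 libraries. Whether any of these exceeds the spread between cultures cannot be said from 1 library per condition.

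Gene length moved with the normal-medium comparison in these libraries, and Cd68 and Lyz2 are short, at 1257 and 1316 bases in the deposited table. Over protein-coding genes that had 100 reads or more in each library, the median log2 ratio of CH223191 to DMSO in normal medium was 0.39 below 1000 bases, 0.23 from 1000 bases, 0.08 from 1500 bases, -0.01 from 3000 bases and -0.08 from 6000 bases on. In 4T1-CM the same medians lay between -0.01 and 0.02. For 4T1-CM against normal medium they ran from -0.28 to 0.05 with DMSO and from -0.64 to 0.15 with CH223191. With the median of the 300 genes nearest in length subtracted, an alternative chosen after the data were seen, the log2 ratio of CH223191 to DMSO in normal medium was 0.62 for Cd68 in place of 0.84, and 0.16 for Lyz2 in place of 0.35. The response of Cd68 to 4T1-CM became 1.13 with DMSO, past 2-fold, and 0.53 with CH223191, a difference of -0.60. For Lyz2 the responses became 1.73 and 1.68, a difference of -0.05 in place of -0.24. For Icam2 they became 0.09 and -0.66, a difference of -0.75 in place of -0.89. No interval was computed for the differences after this removal. Adgre1 (2.13 with DMSO) and Vsig4 (-1.65 and -1.33) stayed past 2-fold. What set the trend with length was not tested.

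**Figure D4:**
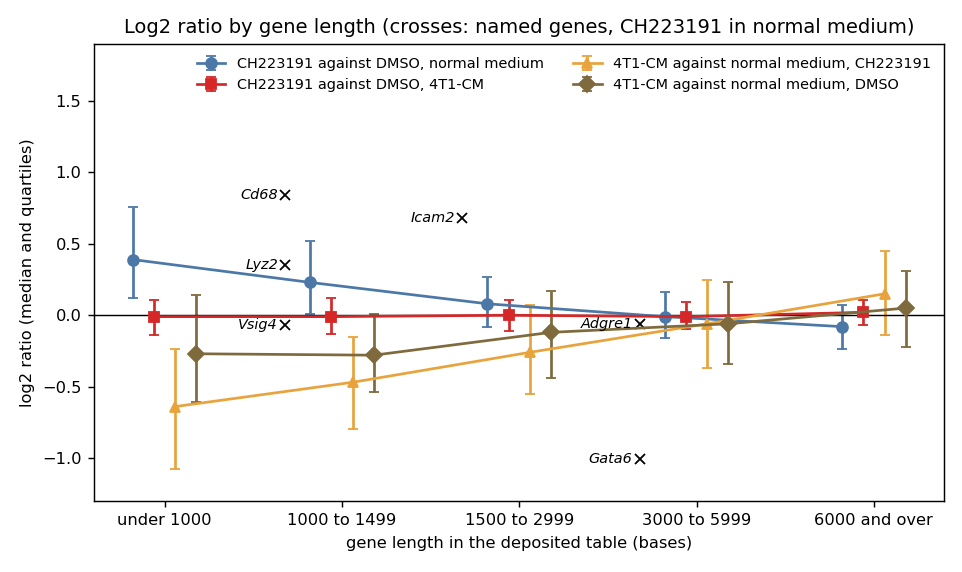
Median log2 ratio, with quartiles as bars, of protein-coding genes that had 100 reads or more in each library, in 5 classes of gene length and for the 4 comparisons; crosses, placed left of their class, are the named genes for CH223191 in normal medium. The medians for CH223191 in normal medium fall from 0.39 to -0.08 with length, those in 4T1-CM stay within 0.02 of 0, and Cd68 at 0.84 lies above the upper quartile of its class.

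The genes whose levels followed the abundant genes most closely over the 4 libraries were sought among 8322 genes averaging 10 CPM or more, by the distance between log2 levels centred on each gene's mean. Nearest to Adgre1 were Acsl1, a long-chain acyl-CoA synthetase (distance 0.089), Gm21188 (0.090) and Mfap3l (0.109). Acsl1 stood at 47.4 and 49.1 CPM in normal medium and 192 and 163 CPM in 4T1-CM. Nearest to Lyz2 were Tcn2, the vitamin B12 carrier transcobalamin (0.081), Pxk (0.093) and Ctsh, the lysosomal protease cathepsin H (0.098), and Ctsh stood at 92.8, 126, 256 and 269 CPM. Nearest to Cd68 were Pcbp2, an RNA-binding protein (0.094), Srp54c (0.095) and Oser1 (0.106), each low with DMSO in normal medium and higher in the other 3 libraries, with Pcbp2 at 64.2, 117, 126 and 126 CPM. With 4 libraries, 387 genes lay within a distance of 0.5 of Cd68, 234 of Lyz2 and 104 of Adgre1, so these are descriptions of 4 values each.

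Other genes of large peritoneal macrophages were more often higher than lower in 4T1-CM, unlike Vsig4. Of 18 such genes, 16 were kept, of which 8 were higher and 1 lower in 4T1-CM with DMSO (12% and 6.07% of all kept genes), and 8 higher and 0 lower with CH223191 (11.8% and 7.77%), with a median log2 ratio of 1.01 in the DMSO pair beside 0.01 over all kept genes. Nt5e (CD73, which makes adenosine) had 3 reads in each normal-medium library and 319 and 203 reads in 4T1-CM. Prg4 (the lubricant proteoglycan 4) had 5 and 8 reads in normal medium and 213 and 208 in 4T1-CM. Cxcl13, a B cell chemoattractant, had 0 and 5 reads and then 72 and 56. These 3 genes reached 10 reads only in 4T1-CM, so to be kept they had to be higher there, and the counts and median above include them. With 10 reads asked of every library, 4 of the list were higher and 1 lower with DMSO, and 4 higher and 0 lower with CH223191. Of these, only Fn1 and Naip1 were higher in both comparisons. The share of all genes under that filter was not counted. Serpinb2, a plasminogen activator inhibitor, had 13 and 6 reads in normal medium and 825 and 365 in 4T1-CM, and Fn1 (fibronectin) rose from 914 and 1093 CPM to 2259 and 2981 CPM. In contrast, Selp (P-selectin), at 25 reads with DMSO in normal medium and 11 with DMSO in 4T1-CM, was the gene lower with DMSO. With CH223191, 2 of the 16 were lower in normal medium: Serpinb2 (6 against 13 reads, with an interval that includes 0) and Cebpb (log2 ratio -1.03). In 4T1-CM 1 was lower (Serpinb2, log2 ratio -1.07), and none was higher in either medium. Of all kept genes, 2.86% were lower and 4.29% higher in normal medium, and 2.51% and 2.63% in 4T1-CM.

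Retinoic acid induces Gata6 in the cavity, and the genes that make it were scarce here. Aldh1a2, which makes retinoic acid, had 6 and 11 reads in normal medium and 14 and 21 in 4T1-CM, a log2 ratio of 1.03 with DMSO and 0.87 with CH223191. Rdh10, which makes its precursor, stood at 5.83 and 4.59 CPM in normal medium and 3.83 and 2.89 CPM in 4T1-CM and did not reach 2-fold. Neither changed 2-fold with CH223191 in either medium.

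Among 14 genes of small peritoneal macrophages and monocytes, the cells that replace resident ones after irritation, 9 were kept. In both 4T1-CM comparisons 2 were higher and 1 lower, beside 12% and 6.07% of all kept genes with DMSO and 11.8% and 7.77% with CH223191. With 10 reads asked of every library 1 was higher and 1 lower, and the share of all genes under that filter was not counted. Cx3cr1, the fractalkine receptor, had 7 and 2 reads in normal medium and 247 and 176 in 4T1-CM, the condition through which it was kept, and H2-Ab1, an MHC class II chain, rose from 5.83 and 5.03 CPM to 15.8 and 11.9 CPM. Itgax (CD11c) was the abundant gene of this list, at 2371 and 2480 CPM in normal medium and 802 and 791 CPM in 4T1-CM, so that it had 9.22 and 10.1 reads for each read of Adgre1 in normal medium and 0.783 and 0.907 in 4T1-CM. Ly6c2, the marker of inflammatory monocytes, had no read in any library. With CH223191, 2 of the 9 were lower in normal medium, beside 2.86% of all kept genes. These were the MHC class II chain H2-Eb1 (31 against 64 reads, log2 ratio -1.03) and Cx3cr1 (2 against 7 reads, with an interval that includes 0). None changed in 4T1-CM, where 2.63% of all kept genes were higher and 2.51% lower.

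**Figure D5:**
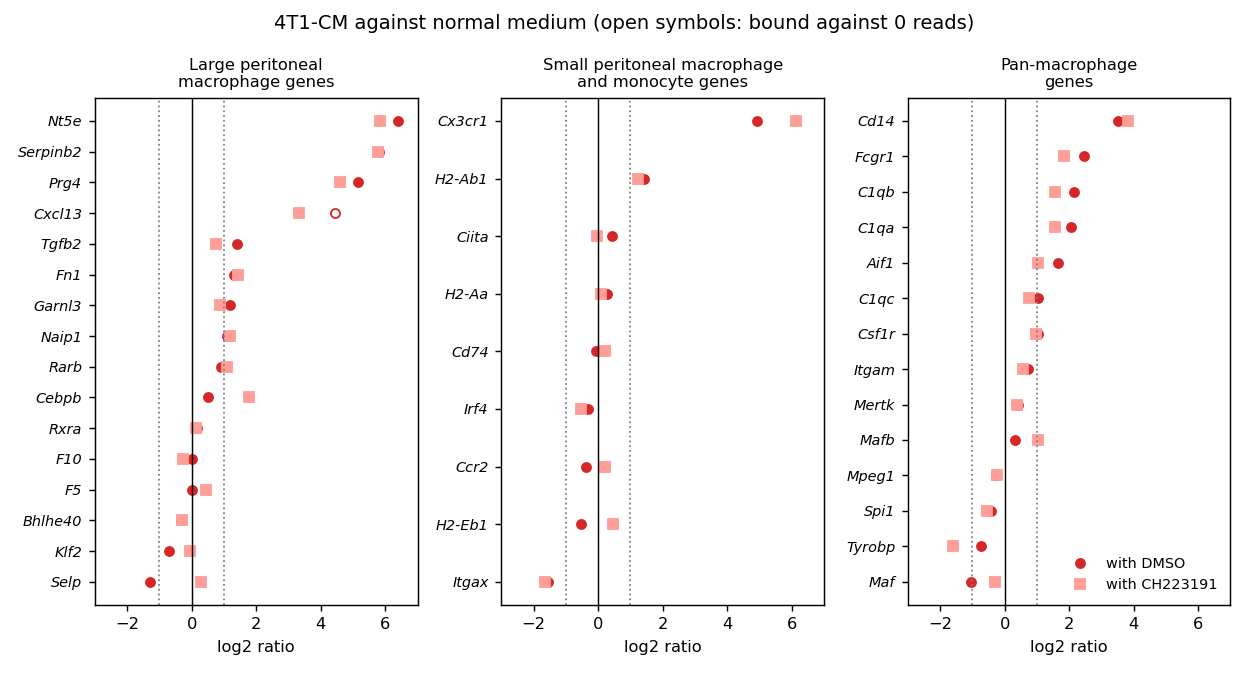
Log2 ratio of 4T1-CM to normal medium with DMSO (circles) and with CH223191 (squares) for the kept genes of 3 lists, with dotted lines at 2-fold and an open symbol for a bound against 0 reads. Nt5e, Serpinb2, Prg4 and Cxcl13 lead the large peritoneal macrophage genes and Cx3cr1 the small peritoneal macrophage and monocyte genes, while Itgax lies lowest in its list at -1.56 and -1.65. Of the leading genes, Nt5e, Prg4, Cxcl13 and Cx3cr1 reached 10 reads only in 4T1-CM, so to be kept they had to be higher there.

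Of the 14 general macrophage genes, 7 were higher and 1 lower in 4T1-CM with DMSO (12% and 6.07% of all kept genes), and 6 higher and 1 lower with CH223191 (11.8% and 7.77% of all kept genes), with median log2 ratios of 0.88 and 0.87. Cd14, the co-receptor for lipopolysaccharide, rose from 275 and 239 CPM to 3153 and 3415 CPM (log2 ratios 3.52 and 3.83). Fcgr1, the high-affinity IgG receptor, had log2 ratios of 2.46 and 1.83, and the complement genes C1qa (2.07 and 1.56) and C1qb (2.16 and 1.56) were higher in both comparisons. The gene lower with DMSO was Maf (log2 ratio -1.05), and that with CH223191 was Tyrobp, the signalling adaptor DAP12 (log2 ratio -1.61), which is also short and was higher with CH223191 in normal medium (1110 against 641 CPM). No gene of the list changed 2-fold with CH223191 in either medium.

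Markers of macrophages of other tissues were mixed. Of 14, 10 were kept, with 5 higher and 2 lower in 4T1-CM with DMSO (12% and 6.07% of all kept genes) and 5 higher and 3 lower with CH223191 (11.8% and 7.77%). With 10 reads asked of every library, 2 were higher in each comparison, and the share of all genes under that filter was not counted. Marco, a scavenger receptor, had no read in normal medium and 64 and 50 reads in 4T1-CM, and P2ry12, a receptor of microglia, went from 0 and 0 to 30 and 34 reads; both were kept through 4T1-CM alone, as was Spic, a factor of red pulp macrophages (0 and 3 reads, then 18 and 9). The microglial gene Tmem119 (log2 ratios 2.07 and 2.13) and Id3 (1.03 and 1.06) made up the remaining rises. Pparg, the regulator of alveolar macrophages, fell from 55.5 and 51.8 CPM to 12.6 and 15.8 CPM, and Siglecf from 15.7 and 13.9 CPM to 6 and 5.42 CPM, and with CH223191 the oxysterol receptor Nr1h3 was lower too (log2 ratio -1.56). Car4, Clec4f and Sall1 had no read in any library. None of the 10 changed 2-fold with CH223191 in either medium. This does not stand out, as 4.29% of all kept genes were higher and 2.86% lower in normal medium, and 2.63% and 2.51% in 4T1-CM.

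Relatives of the 7 genes showed which families were in use. Of 17 relatives 6 were kept, of which 3 were higher and 0 lower in 4T1-CM with DMSO (12% and 6.07% of all kept genes) and 2 higher and 0 lower with CH223191 (11.8% and 7.77%). Havcr2 (TIM-3, of the family of TIM4) rose from 24 and 16.3 CPM to 111 and 98.9 CPM (log2 ratios 2.21 and 2.60), and Icam1, the inducible relative of Icam2, from 35 and 30.3 CPM to 101 and 93 CPM (log2 ratios 1.53 and 1.62). Lyz1 passed 2-fold with DMSO and not with CH223191 (log2 ratios 1.11 and 0.93). The GATA relatives Gata1 to Gata5 had no more than 6 reads in any library. Lamp1 and Lamp2, the relatives of Cd68, were abundant and did not reach 2-fold, and Lamp1 stood at 2183, 2499, 2722 and 2549 CPM. No kept relative changed 2-fold with CH223191. This does not stand out, as 4.29% of all kept genes were higher and 2.86% lower in normal medium, and 2.63% and 2.51% in 4T1-CM.

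The uptake pathways beside TIM4 and VSIG4 gave 3 higher and 3 lower of 16 kept genes, of 17, in 4T1-CM with DMSO (12% and 6.07% of all kept genes), and 2 higher and 3 lower with CH223191 (11.8% and 7.77%). C3, the source of the VSIG4 ligands, rose from 10.1 and 10.5 CPM to 221 and 219 CPM (log2 ratios 4.45 and 4.38). Stab1, a scavenger receptor, was higher in both comparisons (1.05 and 1.14), and its relative Stab2, which like TIM4 binds phosphatidylserine, went from 34 reads in each normal-medium library to 5 and 4 reads (-2.77 and -2.97). With DMSO the TAM receptor Axl was also higher (1.47) and its relative Tyro3 lower (-1.20). The integrin chain Itgb3 just passed 2-fold lower with CH223191 (516 against 1011 reads) and just missed it with DMSO (log2 ratio -0.959). Itgax, which forms a receptor of C3 fragments, was lower in both. Mertk, a receptor for bridged phosphatidylserine, stood at 54 and 68.1 CPM in normal medium and 71.7 and 88.9 CPM in 4T1-CM and did not reach 2-fold. None of the 16 changed 2-fold with CH223191 in either medium. This does not stand out, as 4.29% of all kept genes were higher and 2.86% lower in normal medium, and 2.63% and 2.51% in 4T1-CM.

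Markers of other cell types moved with the medium as well. The 6 fibroblast markers summed to 63 and 30.1 CPM in normal medium and 149 and 127 CPM in 4T1-CM, with Col1a1 and Col1a2 the largest and Lum at no more than 3 reads. Of the B cell markers, Ighm stood at 19.9 and 34 CPM in normal medium and 7.31 and 4.12 CPM in 4T1-CM, with Cd79a, Cd79b, Ms4a1 and Pax5 at no more than 9 reads. The 9 eosinophil and mast cell markers fell from 16.3 and 14.4 CPM to 6.17 and 5.85 CPM, nearly all of it Siglecf, with Prg2, Epx, Ear6, Mcpt4 and Fcer1a at 0. The 5 dendritic cell markers summed to between 1.07 and 2.4 CPM, and the 6 epithelial markers that 4T1 cells would bring to between 0.439 and 1.48 CPM, with Epcam at no more than 1 read and Krt19 at 0. Cdh1 (E-cadherin), the 1 epithelial marker kept, had 3 and 7 reads in normal medium and 16 and 20 in 4T1-CM (log2 ratios 2.11 and 1.42). The part of these other cell types in the ratios of Adgre1, Lyz2 and Vsig4 was not tested.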

How the data were processed

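RNA-seq was performed on 4 samples of peritoneal macrophages in 4 groups, 1 library per group, and each of the 4 count columns was matched to its sample by name. The authors deposited unnormalized counts of reads as whole numbers for 54532 genes. The submitters' processing notes name HISAT2 2.0.5 and DESeq2, without their roles. The study's methods name featureCounts for its alveolar macrophage RNA-seq. Counter, strand setting, annotation and genome build of these libraries are not given in the sources used here. The coordinates in the table are identical to GENCODE M21 of GRCm38 for 53585 of 54495 shared genes.

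A gene was kept where any library had 10 reads or more (13715 genes), and of entries with the same symbol the one with most reads was used. Libraries were scaled by TMM in edgeR 4.0.16 (R 4.3.3), and log2 ratios were taken with a prior count of 0.5 in Python 3.11.15 (numpy 2.4.6, pandas 2.3.3, scipy 1.17.1). RPKM used the gene length in the table. A gene was counted as changed from 2-fold on. Against a library with 0 reads, the ratio was computed against 3 reads as a bound, and no ratio was given where both libraries had 3 reads or fewer. With totals of 15535405 to 17557127 reads, 3 reads correspond to 0.171 to 0.189 CPM. No pair of libraries was tested, for lack of replicates. The procedure was tested on simulated data. Shared stretches were counted over GENCODE M21 transcripts, and motifs were searched in the 250 bases before each RefSeq start; the part of the Lyz2 window inside the annotated gene is not shown. Figures were drawn with matplotlib 3.10.9.

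The genes named are the 7 chosen genes, the 3 genes nearest in pattern to each of them averaging 10 CPM or more, and lists of macrophage, uptake, retinoid and other cell type genes. The chosen genes and the lists were set with earlier results of these data known, and some listed genes are not reported here. As alternatives, libraries were scaled by DESeq2 1.42.0 or by totals, the filter was dropped or asked of every library, the prior count was raised to 5, the genes were limited to protein-coding ones, the fold limit was lowered to 1.5, and further alternatives were additive fits of edgeR and DESeq2 with medium and inhibitor as terms, and removal of the trend with gene length, which was added after the data were seen.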

Additional observations from a re-analysis of the deposited data

Results flagged for a closer look

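3 genes had log2 ratios of opposite sign under the same contrast in the paired conditions, with a counting interval that included 0 in at least 1 of the conditions. In each case the difference was not tested, since there was 1 library per condition. Gata6 had a log2 ratio of 4T1-CM to normal medium of -0.78 with DMSO and 0.23 with CH223191, on 20 to 41 reads. For Icam2, CH223191 against DMSO gave 0.68 on the log2 scale for normal medium but -0.21 for 4T1-CM, on 36 to 69 reads. For Vsig4 the same contrast gave -0.07 for normal medium and 0.11 for 4T1-CM, and both counting intervals included 0.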

How the results depend on the processing

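No paired analysis was possible because each condition had 1 library and the labels give no replicate numbers, and for the same reason no library could be left out. The counts of the 6 genes and of all list genes stayed within 1.5 times in 99 recomputed values and left that range in 9. For single genes, 155 values stayed within the interval of counting error and 25 left it, and for single lists 717 counts stayed within 1.5 times and 51 did not. With a prior count of 5, 0 of the 6 genes were lower with CH223191 in normal medium in place of 1 (Gata6), and 3 list genes changed there in place of 8. With the trend on gene length removed the count of lower genes was also 0, and Cd68 passed 2-fold for 4T1-CM with DMSO. With a 1.5-fold limit, 2 were lower in 4T1-CM with DMSO, 2 lower in 4T1-CM with CH223191 and 2 higher with CH223191 in normal medium. The share of all genes past 1.5-fold was not counted, so whether these counts stand out cannot be said. With no filter, 7 list genes changed with CH223191 in 4T1-CM in place of 4. With 10 reads asked of every library, CH223191 changed 5 list genes for normal medium and 1 for 4T1-CM. The stricter filter tests fewer genes, and the other causes were not tested. Shares of all genes were not counted under these alternatives either, so the counts of list genes have none beside them. No ratio of the 6 genes changed direction past 2-fold. In the additive fits, by edgeR's quasi-likelihood test with Benjamini-Hochberg adjustment, p was 1.79e-06 for Adgre1, 2.74e-06 for Lyz2 and 0.000349 for Vsig4. The others did not pass (Cd68 0.0557, Icam2 0.228, Gata6 0.574). DESeq2's Wald test gave adjusted p of 5.94e-31, 6.84e-16 and 0.00178 for those 3 genes. Both fits take the 2 inhibitor conditions as replicates of each medium, so these p do not measure the spread between cultures. The additive model has no term for the difference in the Cd68 response between the inhibitor conditions. Depth limits Gata6, Icam2, Vsig4 and Timd4, whose reads span 0 to 116, and does not limit Adgre1, Cd68 or Lyz2.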
